A study of Mus musculus with 26 samples.

Results

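The MHC class I and peptide loading genes are 10 mouse genes that build the class I molecule, cut and carry the peptides it displays, or switch on its transcription. They were chosen by name (B2m, H2-K1, H2-D1, Tap1, Tap2, Tapbp, Psmb8, Psmb9, Psmb10 and Nlrc5) and found in the deposited count table by their Entrez identifier. They are 10 of 24454 genes listed, and all 10 were among the 15617 genes that passed the filter on low counts.

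A class I molecule is a heavy chain, such as H2-K1 or H2-D1, held together with the light chain B2m and a short peptide, and it shows cytotoxic T cells a sample of the proteins made inside a cell. Peptides are cut by the proteasome, pumped into the endoplasmic reticulum by the transporter Tap1-Tap2 and loaded with the help of tapasin, the product of Tapbp. Interferon gamma raises the whole set, in part through Irf1, and Nlrc5 acts at the class I promoters as a transactivator. In the healthy brain most neural and glial cells carry little class I, while microglia and endothelial cells carry more.

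RNA was sequenced from GFP+ cells sorted out of early mouse gliomas, 26 libraries in all. All tumours lacked Trp53, were driven by PDGF and carried the Rosa-CAG::GFP reporter, which Cre recombinase switches on. The groups were Rbpj-/- (n = 4), Notch1-/-Notch2-/- (n = 5), Notch1-/- (n = 6), Notch2-/- (n = 5) and control, in which Notch1, Notch2 and Rbpj were wild type (n = 6). Notch1 and Notch2 are receptors whose cleaved intracellular part acts on DNA through Rbpj. The labels do not give strain, sex, age or the cells that Cre reached, nor do they state that each replicate is its own animal. P-values therefore reflect spread among the libraries as deposited, and part of that spread may be technical.

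Total counts ran from 30868828 to 48103535 per library. Rbpj was at 20.4 to 52.0 CPM (counts scaled to 1e+06 per library) in Rbpj-/- libraries and 52.9 to 68.0 CPM in controls, and Notch2 at 6.14 to 8.58 CPM in Notch2-/- libraries and 9.42 to 16.4 CPM in controls. Notch2 was not lower in Notch1-/-Notch2-/- libraries (9.43 to 12.9 CPM), and Notch1 was not lower in Notch1-/- libraries (88.2 to 214 CPM, against 71.2 to 148 CPM in controls), so counts over the whole gene do not check those labels. Markers of oligodendrocyte precursor and glioma cells were abundant throughout (8 markers, 7490 to 18669 summed CPM). In 3 libraries, Notch2-/- replicates 3 and 4 and control replicate 6, both Xist and the Y-linked Ddx3y were above 10 CPM, so RNA of both sexes was present. Counts of called genes are given with and without these 3.

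Of the 10 genes, 7 lie on chromosome 17 in the mouse MHC and its flank (GRCm38.p6), B2m lies on chromosome 2 (122147687 to 122153082), and Psmb10 and Nlrc5 lie on chromosome 8. H2-K1 spans 33996012 to 34000619 and H2-D1 spans 35263094 to 35267497 on chromosome 17. Psmb9, Tap1, Psmb8 and Tap2 stand side by side there within 34.291 kb. Psmb9 and Tap1 point away from each other with 225 bases between them, so their promoters overlap.

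The promoters of the light and heavy chains are shown because they carry the elements through which interferon and Nlrc5 are known to act. The values of the 3 genes followed each other across libraries (Pearson r = 0.967 to 0.978 on log2 CPM). This was not particular to them. Over all pairs of the class I and peptide loading genes r ran from 0.837 (Psmb10 and Nlrc5) to 0.993 (Psmb8 and Psmb9). Whether the marked elements have a part in this was not tested. Each stretch is 140 bases from the RefSeq promoter table (GRCm38.p6), read 5′ to 3′ on the strand of the gene. Capitals mark, in order, the κB site of enhancer A (GGGGATTCC, in the heavy chains), an interferon-stimulated response element (GAAANNGAA in B2m, and GAANTGAAA on the opposite strand in the heavy chains), the core of the X2 box (TGACG) and the core of the Y box (ATTGG).
B2m, chr2:122147509-122147648, plus strand: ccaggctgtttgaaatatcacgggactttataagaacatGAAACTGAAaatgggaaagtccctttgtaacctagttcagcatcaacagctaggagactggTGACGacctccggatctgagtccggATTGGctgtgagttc
H2-K1, chr17:34000349-34000488, minus strand: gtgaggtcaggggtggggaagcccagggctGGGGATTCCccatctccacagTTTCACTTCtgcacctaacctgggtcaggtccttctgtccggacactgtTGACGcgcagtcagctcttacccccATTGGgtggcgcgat
H2-D1, chr17:35262893-35263032, plus strand: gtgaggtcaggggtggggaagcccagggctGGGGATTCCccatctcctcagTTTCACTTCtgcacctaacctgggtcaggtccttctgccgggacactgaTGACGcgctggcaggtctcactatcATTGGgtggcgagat

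In all 3 stretches exactly 20 bases separate the X2 core from the Y core. That spacing was read from these promoters and then searched for on both strands of 32851 promoters of 300 bases, of which 31 (0.0944%) hold it. The 31 include the promoters it was read from, with H2-K1 entered more than once, and also H2-M3. The κB letters are in 82 promoters (0.25%), GAAANNGAA in 8.56%, GAANTGAAA in 1.83%, TGACG in 20.8% and ATTGG in 37.4%. The H2-K1 and H2-D1 stretches are the same at 128 of 140 bases (91.4%), while H2-K1 and B2m are the same at 51 of 140 when laid side by side. The table holds 8 of the 10 genes, and Tap2 and Nlrc5 are named only. Of the 8, 3 hold the pair at this spacing (B2m, H2-K1 and H2-D1) and 2 the κB letters (H2-K1 and H2-D1). GAAANNGAA is in 1 of the 8, GAANTGAAA in 2, TGACG in 5 and ATTGG in 6. The gamma-activated site TTCNNNGAA was found in 1 of the 8, Psmb8, and in 8.30% of all promoters.

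Class I RNA differed widely between libraries of the same genotype, except for most members in Notch2-/-. Among Notch2-/- libraries the members spanned from 1.72-fold (Tap2) to 57.1-fold (Nlrc5), with B2m at 2.07-fold. From the lowest to the highest of the 26 libraries Nlrc5 spanned 1256-fold, Psmb9 434-fold, Psmb8 156-fold, Tap1 139-fold, H2-D1 97.6-fold, H2-K1 89.0-fold, B2m 85.4-fold, Tapbp 34.2-fold, Tap2 26.8-fold and Psmb10 19.4-fold. The SD of log2 CPM within genotypes was 1.22 for Psmb10 to 3.21 for Nlrc5, against a median of 0.38 over all genes tested, and all 10 ranked between place 23 and place 605 of 15617 for this spread. Genotype accounted for 20.3% (Nlrc5) to 41.3% (H2-D1) of the variance of a member, close to the 31.4% of the median gene.

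**Figure D1:**
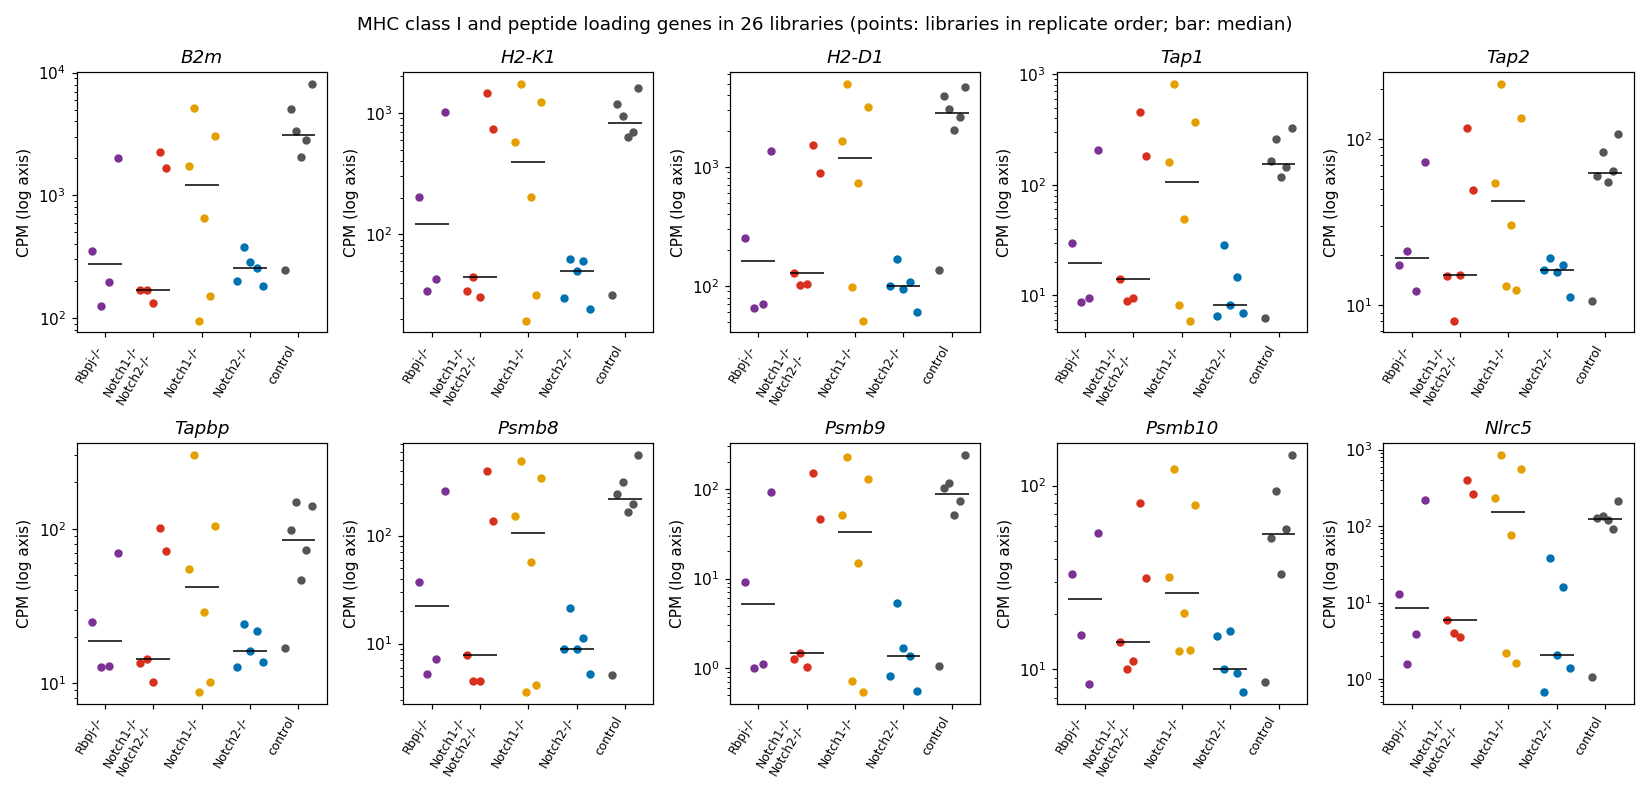
CPM on a log axis of each of the 10 genes (1 panel a gene) in every library, by genotype, with points in replicate order and a bar at the median. In each of Rbpj-/-, Notch1-/-Notch2-/-, Notch1-/- and control the libraries spread over an order of magnitude or more for B2m, H2-K1 and H2-D1. For these genes the Notch2-/- libraries all lie low, beside control replicate 1. For Nlrc5 the highest Notch2-/- library is at 38.6 CPM, against 1.06 CPM in control replicate 1.

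The genes were high or low together. In 12 of 26 libraries all 10 members were above their own median over the libraries, in 11 none was, and only 3 lay between. All 10 were above it in 1 of 4 Rbpj-/-, 2 of 5 Notch1-/-Notch2-/-, 4 of 6 Notch1-/-, 0 of 5 Notch2-/- and 5 of 6 control libraries. None was above it in 1 Rbpj-/-, 3 Notch1-/-Notch2-/-, 2 Notch1-/-, 4 Notch2-/- and 1 control library.

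H2-D1, a heavy chain that presents peptide, had 254, 65.1, 71.0 and 1346 CPM in the 4 Rbpj-/- libraries and 127, 101, 104, 1521 and 880.0 CPM in the 5 Notch1-/-Notch2-/- libraries. It ranged from 51.1 over a median of 1187 to 4992 CPM in Notch1-/- libraries and was 101, 169, 95.0, 107 and 60.7 CPM in Notch2-/- libraries, against 136 over a median of 2834 to 4682 CPM in controls. Within every genotype except Notch2-/-, low libraries near 100 CPM stood beside high ones, and control replicate 1 was the lone low control. By median the order was control, Notch1-/-, Rbpj-/-, Notch1-/-Notch2-/- and Notch2-/-, and the ranges of each pair of neighbours in that order overlapped.

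B2m, the light chain shared by all class I molecules, had 351, 124, 197 and 2011 CPM in Rbpj-/- libraries and 169, 169, 132, 2266 and 1682 CPM in Notch1-/-Notch2-/- libraries. It ranged from 95.1 over a median of 1202 to 5179.9 CPM in Notch1-/- libraries and was 198, 377, 287, 256 and 182 CPM in Notch2-/- libraries, against 246 over a median of 3096 to 8121 CPM in controls. The 12 libraries with all members above their medians held at least 656 CPM of B2m and 739 CPM of H2-D1, and the other 14 held at most 377 and 254 CPM. H2-K1, the other heavy chain, had 203, 34.0, 42.7 and 1010.4 CPM in Rbpj-/- libraries, 34.2, 44.7, 30.6, 1449 and 742 CPM in Notch1-/-Notch2-/- libraries, 19.5 to 1739 CPM in Notch1-/- libraries, 24.2 to 63.4 CPM in Notch2-/- libraries and 31.6 to 1611 CPM in controls.

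Nlrc5, the transactivator of class I genes, had 13.0, 1.58, 3.83 and 221 CPM in Rbpj-/- libraries and 5.98, 3.97, 3.55, 395 and 260.2 CPM in Notch1-/-Notch2-/- libraries. It ranged from 1.64 over a median of 155 to 851 CPM in Notch1-/- libraries and was 0.677, 38.6, 2.07, 15.8 and 1.39 CPM in Notch2-/- libraries, against 1.06 over a median of 124 to 214 CPM in controls. Its highest values, 851, 553, 395 and 260.2 CPM, lay in Notch1-/- and Notch1-/-Notch2-/- libraries, whereas the highest B2m value lay in a control. Per length, Nlrc5 was at 0.00157 over a median of 0.00349 to 0.0136 of the B2m level in Rbpj-/-, 0.00290 over 0.00437 to 0.0215 in Notch1-/-Notch2-/-, 0.00134 over 0.0155 to 0.0223 in Notch1-/- and 0.000422 over 0.000939 to 0.0127 in Notch2-/- libraries, against 0.000532 over 0.00364 to 0.00740 in controls. The ranges of all genotypes overlapped.

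Tap1, which with Tap2 forms the peptide pump, was 8.65 to 207 CPM in Rbpj-/-, 8.93 to 455 CPM in Notch1-/-Notch2-/-, 5.92 to 820.4 CPM in Notch1-/-, 6.53 to 28.8 CPM in Notch2-/- and 6.22 to 328 CPM in control libraries. Tap2 spread less and was 12.1 to 72.8 CPM in Rbpj-/-, 8.08 to 117 CPM in Notch1-/-Notch2-/-, 12.3 to 216 CPM in Notch1-/-, 11.2 to 19.3 CPM in Notch2-/- and 10.7 to 108 CPM in control libraries. Per length, Tap1 was at 0.340 to 3.29 of the Tap2 level over the 26 libraries and above it in 14. Tapbp was 12.7 to 69.3 CPM in Rbpj-/-, 10.2 to 102 CPM in Notch1-/-Notch2-/-, 8.79 to 301 CPM in Notch1-/-, 12.7 to 24.0 CPM in Notch2-/- and 17.0 to 148 CPM in control libraries.

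The immunoproteasome subunits Psmb8, Psmb9 and Psmb10 take the places of the constitutive subunits Psmb5, Psmb6 and Psmb7 and alter which peptides are cut. Psmb9 had 9.20, 1.02, 1.11 and 92.2 CPM in Rbpj-/- libraries, 1.27, 1.48, 1.03, 148 and 45.6 CPM in Notch1-/-Notch2-/- libraries and 0.547 to 227 CPM in Notch1-/- libraries. It had 0.830, 5.29, 1.69, 1.39 and 0.559 CPM in Notch2-/- libraries, against 1.06 to 237 CPM in controls. The 12 libraries highest in B2m held 14.7 to 237 CPM of it, and the other 14 held 0.547 to 9.20 CPM.

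Within a library, the ratio of length-scaled levels (RPKM) of Psmb8 to Psmb5 ran from 0.0565 to 9.70 and exceeded 1 in 12 of 26 libraries: 1 Rbpj-/-, 2 Notch1-/-Notch2-/-, 4 Notch1-/-, 0 Notch2-/- and 5 control. Psmb9 to Psmb6 ran from 0.00469 to 2.81 and exceeded 1 in 4 libraries, while Psmb10 to Psmb7 ran from 0.0232 to 0.635 and exceeded it in 0. The constitutive subunits themselves spanned only 4.95-fold (Psmb5), 3.15-fold (Psmb6) and 2.33-fold (Psmb7) over the libraries.

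**Figure D2:**
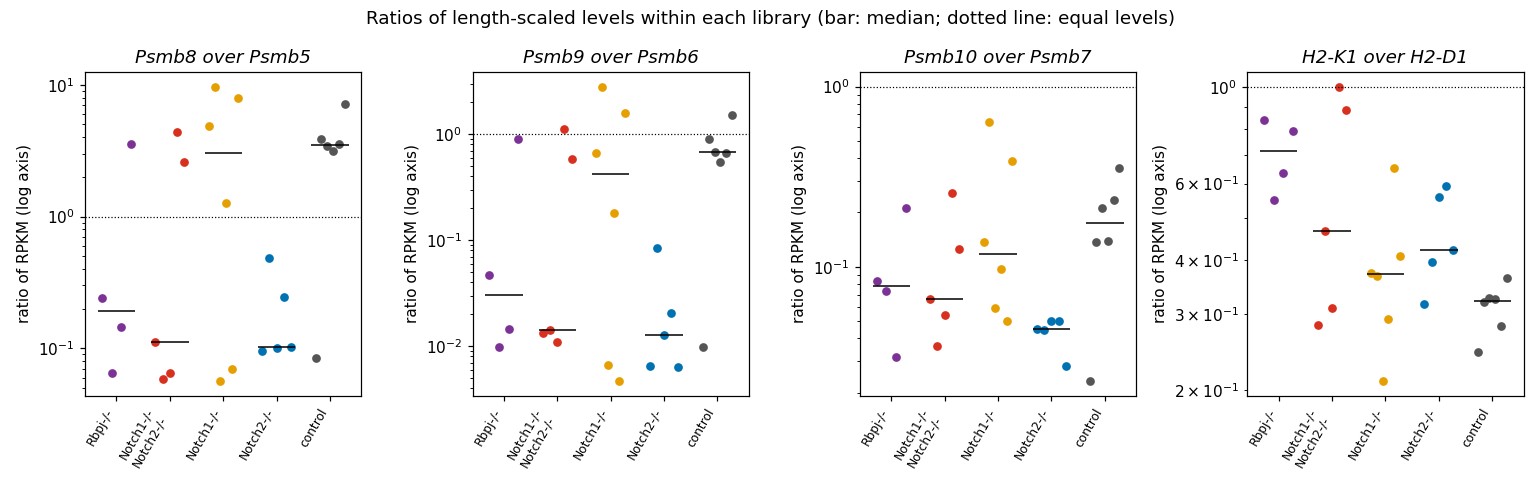
Ratio of RPKM on a log axis within each library for Psmb8 over Psmb5, Psmb9 over Psmb6, Psmb10 over Psmb7 and H2-K1 over H2-D1, by genotype, with a bar at the median and a dotted line at equal levels. Psmb8 exceeded Psmb5 in 12 libraries and Psmb10 stayed below Psmb7 in all 26, and the 4 Rbpj-/- libraries lie above the 6 controls for H2-K1 over H2-D1.

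The balance of the heavy chains was compared after its values were seen and is given without a test. Per length, H2-K1 was at 0.843, 0.551, 0.634 and 0.791 of the H2-D1 level in Rbpj-/- libraries, at 0.283 to 1.00 in Notch1-/-Notch2-/-, at 0.210 to 0.651 in Notch1-/- and at 0.316 to 0.592 in Notch2-/- libraries, against 0.245 to 0.363 in controls. The 4 Rbpj-/- values lay above all 6 control values, although Rbpj-/- replicates 2 and 3 were low in class I and replicate 4 was high. H2-K1, H2-D1 and the H2-Q genes are near-identical copies and how reads that match several of them were counted is not known here, so reads may be shared between them.

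Genotypes were compared with edgeR (quasi-likelihood), and p-values were adjusted by Benjamini-Hochberg over all 15617 genes. A test for any difference among the 5 genotypes called 2 of 10 members, H2-D1 (adjusted p = 0.0144) and B2m (adjusted p = 0.0369), against 29.3% of all genes. With all libraries the unadjusted p was under 0.05 for 7 members, DESeq2 called 7 (39.5% of all genes) and limma voom 1 (45.9% of all genes). Without the 3 libraries of both sexes edgeR called 0 members (H2-D1, adjusted p = 0.0964), where it called 21.1% of all genes.

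In Notch2-/- against control every member was lower, with a median log2 fold change of -3.75 against 0.01 over all genes, yet edgeR called 0 of 10 members, where it called 0.295% of all genes. The unadjusted p was under 0.05 for 9 of 10, DESeq2 called 7 (2.20% of all genes) and limma voom 4 (11.5% of all genes). The largest log2 fold changes were -5.63 ± 1.73 (SE) for Psmb9 (adjusted p = 0.177), -4.68 ± 1.16 for H2-D1 (adjusted p = 0.0948) and -4.47 ± 1.44 for Psmb8 (adjusted p = 0.197). B2m was at -3.79 ± 1.06 (adjusted p = 0.146), and Tap2 was the least lowered at -1.99 ± 0.75 (adjusted p = 0.246). No member's groups failed to overlap (1.59% of all genes did so), since control replicate 1 lay within the Notch2-/- range for 7 members and below it for 3 (Tap1, Tap2 and Psmb8). Without control replicate 1 edgeR called 1 member, H2-D1 (adjusted p = 0.0477; 0.436% of all genes), and with only the libraries of these genotypes in the fit it called 8 (1.21% of all genes). Without the 3 libraries of both sexes it called 0 (0.0763% of all genes), and the median was -3.36.

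In Notch1-/- against Notch2-/- every member was higher, with a median log2 fold change of 3.89 against 0.02 over all genes. Of the 10 members 1 was called. H2-D1 rose by 4.06 ± 1.13 (SE, adjusted p = 0.0468), where 3.09% of all genes were called and 0.839% rose. The unadjusted p was under 0.05 for 10 of 10. Psmb9 was at 5.17 ± 1.69 (adjusted p = 0.0924), Nlrc5 at 4.61 ± 1.74 (adjusted p = 0.147), Tap1 at 4.18 ± 1.33 (adjusted p = 0.0843), H2-K1 at 3.79 ± 1.25 (adjusted p = 0.0950) and B2m at 2.80 ± 1.01 (adjusted p = 0.130). The groups overlapped for every member (3.75% of all genes did not overlap), since Notch1-/- replicates 3 and 5 were as low as the Notch2-/- libraries. The call of H2-D1 was lost without any one of 8 libraries (Notch1-/- replicates 1, 2 and 6 and each Notch2-/- replicate; highest adjusted p = 0.113). It was also lost without the 3 libraries of both sexes (adjusted p = 0.264), which include Notch2-/- replicates 3 and 4. In that smaller fit H2-D1 was at 4.01 and the members' median was 3.95, so the fold changes hardly moved. Without Notch1-/- replicate 5 edgeR called 3 members, where it called 5.39% of all genes. DESeq2 called 9 members (7.04% of all genes) and limma voom 0 (H2-D1, adjusted p = 0.0567; 12.2% of all genes).

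In Rbpj-/- against control all 10 members were lower, with a median log2 fold change of -1.48 against 0.07 over all genes, and edgeR called 0 of 10 where it called 15.2% of all genes. The unadjusted p was under 0.05 for 2, B2m and H2-D1, DESeq2 called the same 2 (20.2% of all genes) and limma voom 0 (24.0% of all genes). H2-D1 was at -2.66 ± 1.15 (SE, adjusted p = 0.113) and B2m at -2.43 ± 1.09 (adjusted p = 0.127). The groups overlapped for every member (7.74% of all genes did not). Without Rbpj-/- replicate 4, the high library of its group, the median was -3.66 and H2-D1 was called (adjusted p = 0.0456), as were 7.95% of all genes.

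In Notch1-/-Notch2-/- against control 9 of 10 members were lower, with a median log2 fold change of -1.10 against 0.01 over all genes, and edgeR called 0 of 10 where it called 37.1% of all genes. The unadjusted p was under 0.05 for 2, and DESeq2 (40.9% of all genes) and limma voom (47.2% of all genes) each called B2m and H2-D1. H2-D1 was at -2.33 ± 1.03 (SE, adjusted p = 0.0788), B2m at -2.03 ± 0.98 (adjusted p = 0.104) and Nlrc5 at 0.22 ± 1.44 (adjusted p = 0.919). The groups overlapped for every member (22.7% of all genes did not). Without Notch1-/-Notch2-/- replicate 4 the median was -1.98, without control replicate 6 it was -0.74. Without the first of these libraries edgeR called 2 members, H2-D1 and Psmb10, where it called 29.8% of all genes.

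In Notch1-/- against control 7 of 10 members were lower, with a median log2 fold change of -0.44 against 0.03 over all genes. No member was called by edgeR, where 26.7% of all genes were, and the unadjusted p was under 0.05 for 0. DESeq2 (31.7% of all genes) and limma voom (44.2% of all genes) each called 0 members. The values ran from -0.99 ± 0.89 (SE) for B2m (adjusted p = 0.408) to 1.31 ± 1.40 for Nlrc5 (adjusted p = 0.492), and the median was -1.05 without Notch1-/- replicate 2 and -0.012 without control replicate 6. The groups overlapped for every member (7.66% of all genes did not). The 4 comparisons against control share the same 6 controls.

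**Figure D3:**
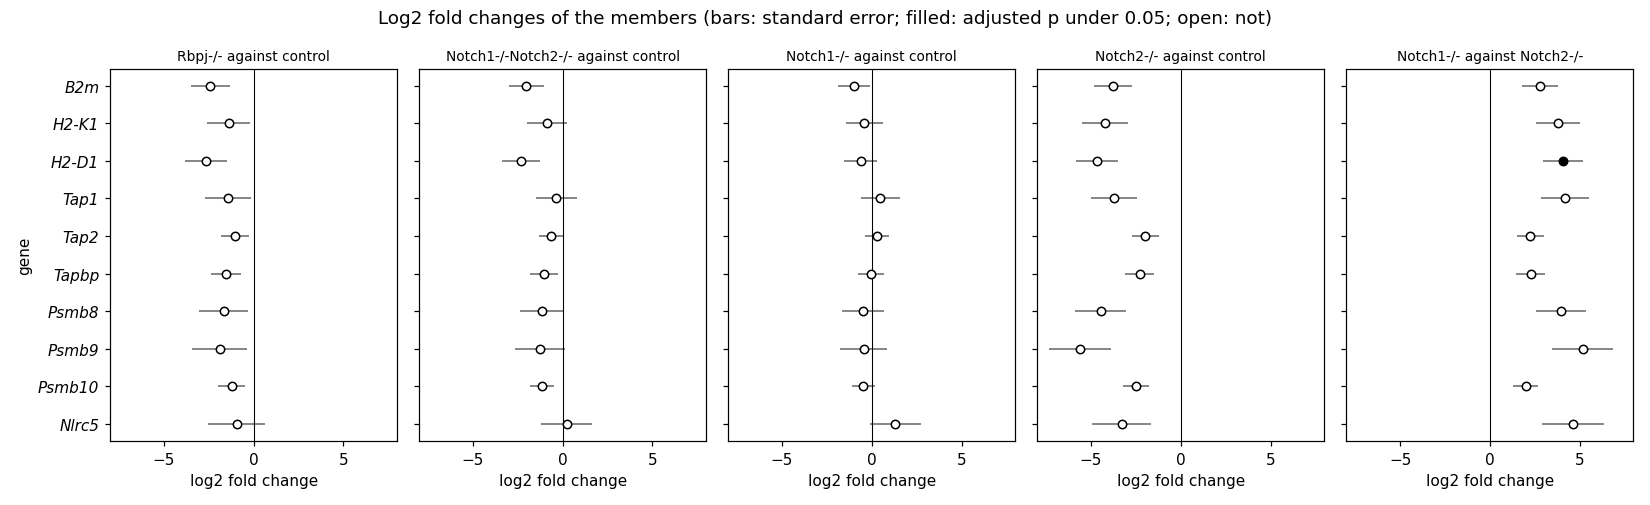
Log2 fold change of each of the 10 genes (rows) in 5 comparisons (panels), with bars of 1 standard error; filled points passed an adjusted p of 0.05 and open points did not. Notch2-/- values lie below 0 for all 10 genes with 0 called, and H2-D1 in Notch1-/- against Notch2-/- is the 1 filled point.

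Rbpj-/- against Notch1-/-Notch2-/- gave a median log2 fold change of -0.50 against 0.06 over all genes. EdgeR called 0 of 10 members (0.794% of all genes), with 0 at an unadjusted p under 0.05. DESeq2 (2.03% of all genes) and limma voom (0.948% of all genes) also called 0. The groups overlapped for every member (4.42% of all genes did not). Without Notch1-/-Notch2-/- replicate 4 the median turned to 0.50, and without Rbpj-/- replicate 4 it was -2.19. The interaction of Notch1 and Notch2 loss asks whether the double loss differs from the sum of the single losses on the log2 scale. It was positive for 10 of 10 members, with a median of 2.82 against -0.04 over all genes. For the interaction edgeR called 0 of 10 (0.0768% of all genes), with an unadjusted p under 0.05 for 5. DESeq2 (0.794% of all genes) and limma voom (5.92% of all genes) also called 0. Without Notch1-/-Notch2-/- replicate 4 the median of the interaction was 1.80.

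Over the 26 libraries each member correlated with the mean of the other members at Pearson r = 0.936 (Psmb10) to 0.994 (Psmb9) on log2 CPM, with the closest pair Psmb8 and Psmb9 (r = 0.993) and the loosest Psmb10 and Nlrc5 (r = 0.837). The genes outside the set most like its mean were H2-Q4 (r = 0.993), H2-Q9 and H2-Q7 (both 0.991), H2-T10 (0.990), Irf1 (0.988), Gm12250 (0.987), Parp10 (0.985), Igtp (0.985), H2-T-ps (0.983) and Ifi47 (0.982). Irf1 is a transcription factor induced by interferon gamma, and Igtp and Ifi47 are interferon-induced GTPases. Counts of H2-Q7 and H2-Q9 differed by 0 to 3 per library, so the pair gives 1 value. These correlations describe 26 libraries that include all genotypes, and r with the log2 of the library total was 0.05.

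Irf1 had 40.1, 17.1, 19.2 and 136 CPM in Rbpj-/- libraries and 19.6, 20.1, 21.9, 270.1 and 111 CPM in Notch1-/-Notch2-/- libraries. It ranged from 15.7 to 535 CPM in Notch1-/- libraries and was 19.6, 41.5, 20.1, 28.3 and 17.9 CPM in Notch2-/- libraries, against 16.6 to 297 CPM in controls. Rfx5, a subunit of the complex that holds Nlrc5 at the promoter, had r = 0.05 with the members' mean. Interferon gamma itself (Ifng) was nearly undetected, at 0 CPM in 3 of 4 Rbpj-/-, 4 of 5 Notch1-/-Notch2-/-, 3 of 6 Notch1-/- and 5 of 5 Notch2-/- libraries and in 1 of 6 controls, replicate 6, which had the highest B2m. Its highest level was 0.547 CPM, in Notch1-/- replicate 2, the library with the highest Tap1, H2-D1 and Nlrc5.

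**Figure D4:**
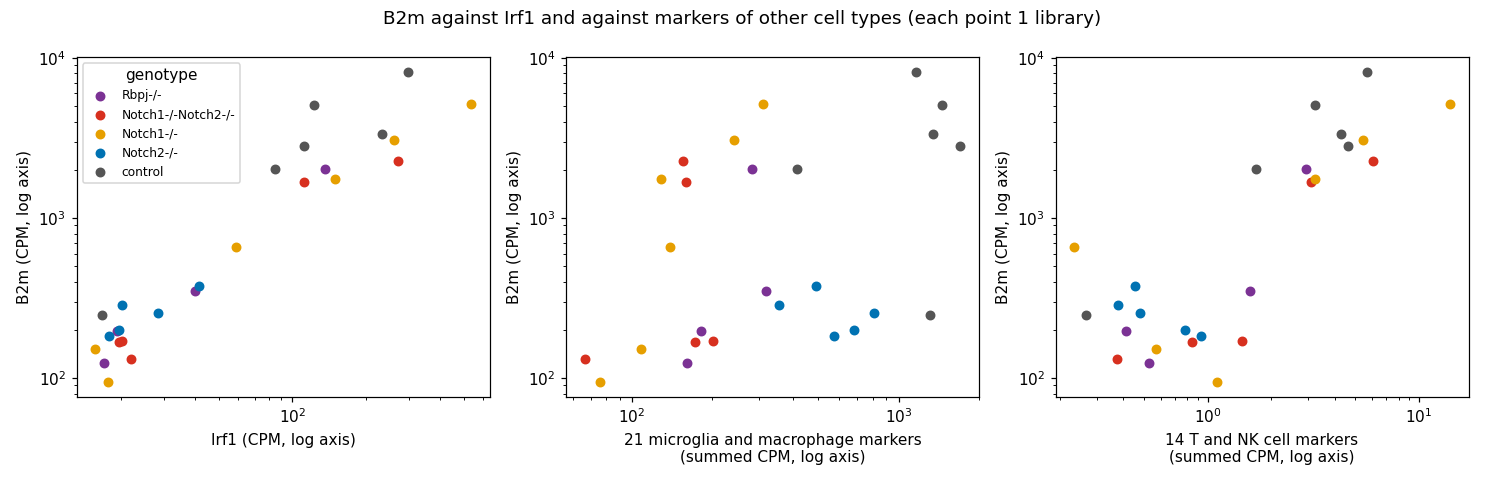
B2m (CPM, log axis) in each of 26 libraries against Irf1, against the summed CPM of 21 microglia and macrophage markers and against that of 14 T and NK cell markers (all log axes), coloured by genotype. B2m is high where Irf1 is high, and microglia markers run from 66.6 to 1703 summed CPM and T and NK cell markers from 0.235 to 14.0.

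In bulk RNA, fewer cells of a type and less RNA per cell cannot be told apart, so markers of other cell types are given beside the class I values. All 21 microglia and macrophage markers were detected in every library. Their summed level was 160 to 319 CPM in Rbpj-/-, 66.6 to 202 CPM in Notch1-/-Notch2-/-, 76.2 to 310 CPM in Notch1-/- and 357 to 812 CPM in Notch2-/- libraries, against 416 to 1703 CPM in controls. Of the 21, 17 fell in Rbpj-/-, 19 in Notch1-/-Notch2-/-, 20 in Notch1-/- and 0 in Notch2-/- against control, and 11 fell in Notch1-/- against Notch2-/-. Over all genes the share called, in either direction, was 15.2%, 37.1%, 26.7% and 0.295% against control for Rbpj-/-, Notch1-/-Notch2-/-, Notch1-/- and Notch2-/-, and 3.09% in Notch1-/- against Notch2-/-. In Notch2-/- against control 20 of 21 had a negative log2 fold change (median -0.89), with 9 at an unadjusted p under 0.05.

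Across the 26 libraries the mean of the class I members had r = 0.26 with the microglia score, and r = 0.41 when both were taken as deviations from their genotype means. Genotype accounted for 80.4% of the variance of that score. With the score as a covariate the median log2 fold change of the members against control was 0.94 in Rbpj-/-, 2.65 in Notch1-/-Notch2-/-, 2.71 in Notch1-/- and -2.61 in Notch2-/-. There 0 members were called in each, where in that order 0.0448%, 2.36%, 0.0832% and 0.109% of all genes were. In Notch1-/- against Notch2-/- the median was 5.80, with 8 members called, where 2.53% of all genes were. The sign turned in 3 of these comparisons and not in Notch2-/- against control or Notch1-/- against Notch2-/-. Because genotype accounted for 80.4% of the variance of the score, this fit can hardly separate genotype from score, and no conclusion is drawn from the turned signs.

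The 14 T and NK cell markers summed to 0.412 to 2.92 CPM in Rbpj-/-, 0.373 to 6.06 CPM in Notch1-/-Notch2-/-, 0.235 to 14.0 CPM in Notch1-/- and 0.378 to 0.931 CPM in Notch2-/- libraries, against 0.265 to 5.70 CPM in controls. Up to 13 of 14 were at 0 in a single library, and Notch1-/- replicate 2 had the highest sum. Of the 14, 7 passed the filter on low counts, and edgeR called 0 of them in each pairwise comparison. In Notch2-/- against control 7 of these 7 had a negative log2 fold change (median -4.76, 6 at an unadjusted p under 0.05). In Notch1-/- against Notch2-/- 7 of 7 had a positive one (median 4.49, 7 at an unadjusted p under 0.05). With 8 to 13 of the 14 at 0 in each Notch2-/- library, these 7 passed the filter mainly through other groups. Their direction in both comparisons was therefore partly set by the filter, and no likeness to the class I genes is drawn from it. Of 10 markers of infiltrating myeloid cells 6 passed the filter, and in Notch2-/- against control 6 of 6 had a negative log2 fold change (median -1.65, 0 called, 3 at an unadjusted p under 0.05). In Notch1-/- against Notch2-/- 4 of 6 had a positive one (median 0.58, 0 called, 3 at an unadjusted p under 0.05). The part of these cells in the class I values was not tested. Of 12 endothelial markers, 7 fell in Rbpj-/-, 10 in Notch1-/-Notch2-/-, 10 in Notch1-/- and 0 in Notch2-/- against control, beside the shares of all genes given for the microglia markers (15.2%, 37.1%, 26.7% and 0.295%), and in Notch2-/- 0 of the 12 had an unadjusted p under 0.05.

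The 4 libraries with Xist but without Ddx3y (Rbpj-/- replicate 2, replicates 1 and 2 of Notch1-/-Notch2-/-, and control replicate 1) were all low in class I, with 124 to 246 CPM of B2m. The 19 libraries with Ddx3y but without Xist ran from 95.1 to 5179.9 CPM. With Xist added to the fit, H2-D1 in Notch1-/- against Notch2-/- was at 3.43 (adjusted p = 0.122).

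Of 18 nonclassical and class I-like genes 17 were tested. In Notch1-/- against Notch2-/- 4 rose: H2-T3 by 4.19 ± 0.92 (SE, adjusted p = 0.0106), H2-Q2 by 5.38 ± 1.37 (adjusted p = 0.0290), H2-Q1 by 4.94 ± 1.32 (adjusted p = 0.0383) and H2-Q10 by 4.44 ± 1.19 (adjusted p = 0.0388). H2-T3 was scarce throughout, at 0.0238 to 1.45 CPM in Notch1-/- and 0 to 0.0437 CPM in Notch2-/- libraries, and these genes share sequence with their neighbours. In Notch2-/- against control H2-T3 fell by 4.67 ± 0.92 on the log2 scale (adjusted p = 0.0200), the only one of the 17 called. With at most 0.0437 CPM in Notch2-/- libraries, H2-T3 passed the filter on low counts through other groups. Its direction in both comparisons was therefore partly set by the filter, and no conclusion is drawn from its calls.

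In Notch1-/-Notch2-/- against control 4 of the 17 fell and 2 rose, a share close to the 37.1% of all genes called. Mr1, which presents vitamin B metabolites, fell by 1.80 ± 0.43 (SE, adjusted p = 0.00248), the IgG receptor Fcgrt by 3.15 ± 0.82 (adjusted p = 0.00481) and Hfe, which regulates iron uptake, by 1.29 ± 0.35 (adjusted p = 0.00698) on the log2 scale. Cd1d1, which presents lipids, rose by 0.59 ± 0.16 (adjusted p = 0.00779). In Rbpj-/- against control Hfe fell by 1.35 ± 0.38 on the log2 scale (adjusted p = 0.0220) and was the only one of the 17 called, and in Notch1-/- against control 0 were, with 3 at an unadjusted p under 0.05.

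Of 12 other genes of peptide generation and loading, all tested, few changed. Psme3, a proteasome activator, rose by 0.63 ± 0.16 (SE, adjusted p = 0.0124) in Rbpj-/- and by 0.44 ± 0.15 (adjusted p = 0.0247) in Notch1-/-Notch2-/- against control. Pomp, a proteasome assembly factor, fell by 0.50 ± 0.18 (adjusted p = 0.0361) in Notch1-/-Notch2-/- and by 0.56 ± 0.17 (adjusted p = 0.0218) in Notch1-/- against control on the log2 scale, and in Notch2-/- against control 0 of 12 were called, with 5 at an unadjusted p under 0.05. Of the constitutive catalytic subunits Psmb7 fell by 0.48 ± 0.19 (adjusted p = 0.0464) in Notch1-/-Notch2-/- and by 0.68 ± 0.18 (adjusted p = 0.00824) in Notch1-/- against control on the log2 scale.

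Of 16 transcription factors of class I genes, 2 rose and 1 fell in Notch1-/-Notch2-/- against control, where 37.1% of all genes were called. Rfx5 rose by 0.59 ± 0.21 (SE, adjusted p = 0.0288), Creb1 rose by 0.64 ± 0.25 (adjusted p = 0.0482) and Irf2 fell by 0.50 ± 0.18 on the log2 scale (adjusted p = 0.0338). In Notch1-/- against control Rfx5 rose by 0.64 ± 0.20 (adjusted p = 0.0228). Irf1 was at -2.50 ± 0.90 in Notch2-/- against control (adjusted p = 0.233). Ifngr1, a chain of the interferon gamma receptor, fell by 0.43 ± 0.11 (adjusted p = 0.0164) in Rbpj-/- and by 0.39 ± 0.10 (adjusted p = 0.00801) in Notch1-/- against control on the log2 scale, and the receptor kinase Jak1 fell by 0.51 ± 0.13 (adjusted p = 0.00517) in Notch1-/-Notch2-/-. Its partner Jak2 rose by 0.76 ± 0.28 (adjusted p = 0.0466) in Notch1-/- against control.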

How the data were processed

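Tumour cells were sorted for GFP, and per the labels' protocols a NextSeq 500 read libraries of the TruSeq Stranded RNA LT kit. The authors deposited whole-number counts per gene with Entrez identifiers and a gene length. The submitters' processing notes name STAR and mm10. The aligner's version, the counter, its annotation and strand setting, and how reads matching several genes were treated: not given in the sources used here. Counts of near-identical and overlapping genes (H2-K1, H2-D1, the H2-Q genes) are therefore uncertain. Symbols, positions and promoter sequences come from RefSeq tables of GRCm38.p6, and 24374 of 24454 genes matched.

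The 26 libraries, 30868828 to 48103535 counts each, were grouped by their labelled genotype. Genes were filtered with filterByExpr and scaled by TMM, and 1 model held all 26 with genotype as its term. Contrasts were tested with edgeR 4.0.16 (quasi-likelihood F-test, R 4.3.3) and adjusted by Benjamini-Hochberg over 15617 genes, with a threshold of 0.05. Genes are said to have risen or fallen only past it, and a standard error is the size of the log2 fold change over the square root of F. CPM used TMM-scaled totals, log2 CPM a prior count of 2, and RPKM the deposited length.

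The members, lists and contrasts were chosen with earlier results of these data known. Genes outside the set were named by a rule: up to 4 of a list with the smallest adjusted p past the threshold, or the 2 most expressed where none passed, from which those described were taken, and the 10 genes whose log2 CPM correlated best with the members' mean. Alternatives were each library left out in turn, a microglia score as a covariate, a fit of the compared libraries alone, replicate number as a block, limma voom 3.58.1 with quality weights, DESeq2 1.42.0 (its test, and its size factors in edgeR), a stricter filter (10 CPM in at least 4 libraries) and none. Leaving out 3 libraries with RNA of both sexes and taking Xist as a covariate were added after the data were seen. The procedure was also run on simulated data, in which all genes had the same dispersion and varied independently. The members spread widely within genotypes and moved together, so that run does not show how the procedure performs for them. Of the listed transcription factors, 1 is not reported here by name.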

Additional observations from a re-analysis of the deposited data

Results flagged for a closer look

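Control replicate 1 stood apart from the other 5 controls for 7 of the 10 members: its gap to the next control, on log2 CPM, exceeded what Dixon's test allows. Its values were 31.6 CPM for H2-K1, 136 CPM for H2-D1, 6.22 CPM for Tap1, 10.7 CPM for Tap2, 5.11 CPM for Psmb8, 1.06 CPM for Psmb9 and 1.06 CPM for Nlrc5, each the lowest control. Of 50 groups of libraries looked at, these 7 were flagged, where chance flags about 1 in 20 groups, and the 7 come from 1 library and are not independent. The same library held 1309 summed CPM of microglia and macrophage markers, within the 416 to 1703 CPM of the controls, and 16.6 CPM of Irf1, the lowest control.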

How the results depend on the processing

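In Notch1-/- against Notch2-/- 0 members were called with no filter (2.08% of all genes), the filter of 10 CPM (1.75%) or limma voom (12.2%). The same held with only the compared libraries (1.99%), with Xist (1.93%) and without the 3 libraries of both sexes (0.903%). There DESeq2 called 9 (7.04% of all genes) and the fit with the microglia score 8 (2.53% of all genes). In Notch2-/- against control DESeq2 called 7 (2.20% of all genes), limma voom 4 (11.5%) and the fit of only the compared libraries 8 (1.21%). DESeq2 called 2 in Rbpj-/- (20.2% of all genes) and 2 in Notch1-/-Notch2-/- against control (40.9%). Limma voom called 2 in Notch1-/-Notch2-/- against control (47.2% of all genes). Among the 5 genotypes DESeq2 called 7 (39.5% of all genes) and limma voom 1 (45.9% of all genes). There the fit with the microglia score called 1 (3.61% of all genes) and the fit without the 3 libraries 0 (21.1% of all genes). The labels do not say whether replicate numbers pair the libraries, and the counts showed no pairing. Deviations of same-numbered libraries had r = -0.42 to 0.63 (median -0.04) in 47 pairs, 13 of them over 0.1. Libraries of different numbers had a median of -0.01 in 222 pairs, 80 of them over 0.1. Only 4 of 26 libraries correlated best with their own number. A shared batch or litter was not tested. With the replicate block 0 members were called in Notch1-/- against Notch2-/- (1.92% of all genes) and 1 among the 5 genotypes (23.6% of all genes). In that fit Nlrc5 in Notch1-/-Notch2-/- against control was at -0.54. Leaving out 1 library gave 0 to 3 calls in Notch1-/- against Notch2-/- (1.76% to 5.39% of all genes). Against control it gave 0 to 2 in Notch1-/-Notch2-/- (29.8% to 40.1% of all genes). It gave 0 to 1 in Notch2-/- (0.135% to 0.532%) and 0 to 1 in Rbpj-/- against control (7.16% to 20.8%). Among the 5 genotypes it gave 1 to 5 (23.3% to 35.8%). There 1 was called without control replicates 2, 3, 5 or 6 or any Notch2-/- library. Without Rbpj-/- replicate 4 edgeR called 5 members, where it called 28.5% of all genes. No log2 fold change that turned its sign passed the threshold, and the cause was not tested. With the microglia score, against control, those of Rbpj-/- were H2-K1 0.97, Tap1 1.32, Tap2 0.64, Tapbp 0.96, Psmb8 0.92, Psmb9 1.10, Psmb10 0.44 and Nlrc5 1.49. Those of Notch1-/-Notch2-/- were B2m 1.40, H2-K1 2.76, H2-D1 1.12, Tap1 3.86, Tap2 1.81, Tapbp 2.53, Psmb8 2.88, Psmb9 3.40 and Psmb10 1.26. Those of Notch1-/- were B2m 1.88, H2-K1 2.59, H2-D1 2.20, Tapbp 2.88, Psmb8 2.83, Psmb9 3.30 and Psmb10 1.57. With limma voom, Rbpj-/- against Notch1-/-Notch2-/- gave B2m 0.59, H2-K1 0.91, H2-D1 0.37, Tap1 0.61, Tap2 0.74, Tapbp 0.43, Psmb8 1.29, Psmb9 1.43, Psmb10 0.63 and Nlrc5 0.54, Nlrc5 in Notch1-/-Notch2-/- against control -1.55, and Notch1-/- against control Tap1 -0.65 and Tap2 -0.32. With Xist, Nlrc5 was at -0.42 in Notch1-/-Notch2-/- and Tap1 at -0.087 in Notch1-/- against control, and without the 3 libraries Tapbp was at 0.15 and Psmb9 at 0.045 in Notch1-/-. Leaving out 1 library, Rbpj-/- against Notch1-/-Notch2-/- ran over -1.98 to 0.32 for B2m, -2.30 to 0.60 for H2-K1, -2.07 to 0.52 for H2-D1, -3.07 to 0.25 for Tap1, -1.28 to 0.49 for Tap2, -1.33 to 0.12 for Tapbp, -2.73 to 1.01 for Psmb8, -3.37 to 1.07 for Psmb9 and -0.63 to 0.75 for Psmb10, Notch1-/- against control over -0.50 to 0.76 for Tap1, -0.37 to 0.49 for Tap2, -1.05 to 0.20 for Tapbp and -1.30 to 0.044 for Psmb9, and Nlrc5 in Notch1-/-Notch2-/- against control over -0.75 to 0.53. Depth limits the scarce genes: Ifng, at most 0.547 CPM, had too few counts to be tested.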

Other observations

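Of the 7 MHC class II genes, all tested, 0 were called in Notch2-/- against control by edgeR, with 6 at an unadjusted p under 0.05 and a median log2 fold change of -5.32. Cd74, the invariant chain, had 1.51, 1.52, 2.42, 9.82 and 1.39 CPM in the 5 Notch2-/- libraries, against 2.27, 583, 378, 51.8, 562 and 937 CPM in the 6 controls, and was at -6.98 ± 2.06 (SE, adjusted p = 0.162). Control replicate 1 was again the low control. In Notch1-/-Notch2-/- against control H2-DMa, which loads peptide on class II, fell by 2.16 ± 0.83 on the log2 scale (adjusted p = 0.0439). Ciita, the transactivator of class II genes, had r = 0.96 with the mean of the class I members over the 26 libraries.

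The 12 interferon-induced companion genes (among them Gbp2, Cxcl10, Isg15 and Igtp) had a median log2 fold change of -2.34 in Rbpj-/-, -1.16 in Notch1-/-Notch2-/-, 0.08 in Notch1-/- and -3.97 in Notch2-/- against control, and 3.08 in Notch1-/- against Notch2-/-. EdgeR called 0 in each, and the unadjusted p was under 0.05 for 2 in Rbpj-/-, 0 in Notch1-/-Notch2-/-, 0 in Notch1-/- and 11 in Notch2-/- against control and for 10 in Notch1-/- against Notch2-/-. Cd274, a ligand of the T cell checkpoint receptor, was chosen after its value was seen and had r = 0.98 with the mean of the class I members.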
